A study of Mus musculus with 6 samples.

Results

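Histone lysine methyltransferases and demethylases were followed in bulk RNA sequencing of mouse tumours made with the melanoma cell line B16. The members are every row of the gene count table whose name begins with Kmt or Kdm followed by a digit, 27 of 34665 rows. Of these, 25 are annotated as protein-coding, Kdm6bos is an antisense RNA at the Kdm6b locus and Kdm4dl is an unprocessed pseudogene (GENCODE M21, genome build GRCm38). The RT_ICI group holds 3 tumours from mice given radiation plus an immune checkpoint inhibitor (replicates 1, 2 and 4). The ICI group holds 3 tumours from mice given the inhibitor alone (replicates 1, 2 and 3), so all 6 tumours had the inhibitor. All are given as wild type. The sources used here do not give the inhibitor, the radiation dose, the age of the mice, the time of harvest or whether the sampled tumour lay in the radiation field. Since the labels name no separate animals, p-values reflect how far the 6 libraries spread, which may be technical.

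Methyl groups on the lysines of histones H3 and H4 mark states of chromatin. Methylation of H3K4 marks promoters and enhancers in use, that of H3K36 marks transcribed gene bodies, and that of H3K9, H3K27 and H4K20 is tied to repression or compaction, depending on how many methyl groups are added. Kmt enzymes write these marks from S-adenosylmethionine. Most Kdm enzymes remove them with a JmjC domain that needs oxygen, iron and 2-oxoglutarate, while Kdm1a and Kdm1b use a flavin cofactor.

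The libraries held 22543721 to 45624013 counts in RT_ICI and 32201558 to 43109047 in ICI. RT_ICI replicate 1 stood apart, with counts on 29748 rows, where the others had 22763 to 24891. Mitochondrially encoded protein genes took 11.4% to 14.6% of counts in RT_ICI and 4.33% to 4.91% in ICI, and all 13 of them were called higher. Melanocyte genes, the defining markers of B16, summed to 10608 to 15133 CPM (counts scaled to library size) in RT_ICI and 13948 to 15842 CPM in ICI, with 1 of 8 called (Mlana, higher). Of the 6 adipocyte markers 1 was called (Plin4, higher), and none of the tested macrophage, T and NK cell, fibroblast, muscle, neutrophil, B cell, endothelial, keratinocyte or erythroid markers was. The 6 adipocyte markers summed to 58.9 to 78.5 CPM in RT_ICI and 0.654 to 24.99 CPM in ICI. For the 6 muscle markers the sums were 16.8 to 2154 CPM in RT_ICI and 2.49 to 208 CPM in ICI. The 8 macrophage markers summed to 166 to 341 CPM in RT_ICI and 158 to 203 CPM in ICI. For the 8 T and NK cell markers the sums were 1.35 to 17.4 CPM in RT_ICI and 3.07 to 49.9 CPM in ICI. For the 6 fibroblast markers they were 244 to 488 CPM in RT_ICI and 74.7 to 499 CPM in ICI. The 5 erythroid markers summed to 80.3 to 327 CPM in RT_ICI and 174 to 3503 CPM in ICI, and the 5 endothelial markers to 30.1 to 157 CPM in RT_ICI and 50.9 to 133 CPM in ICI. The neutrophil, B cell and keratinocyte lists each stayed at or under 11.03 CPM in RT_ICI and 3.17 CPM in ICI. No marker of these lists was at 0 in all 6 libraries. The part of these other cells in the values below was not tested, and in bulk tissue fewer cells of a type cannot be told from less RNA per cell.

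Kdm2a was the only Kmt or Kdm gene called different between the groups. It encodes an H3K36 demethylase that binds unmethylated CpG islands, and it fell 1.52-fold in RT_ICI. Over the 25 members with enough counts to be tested, 1 was lower, 0 were higher and 24 did not pass. The call rule was an adjusted p (Benjamini-Hochberg, over all tested genes) under 0.05 in edgeR's quasi-likelihood test. Over all 16924 tested genes 4.72% were called lower and 4.46% higher, 9.18% in all, so the share of the members called was near or below the background. At an unadjusted p under 0.05, 7 of the 25 members were lower, where 15.8% of all tested genes were. In the other direction 4 of the 25 were higher, near the 15.7% of all tested genes. DESeq2 called 4 members lower and 3 higher, beside 10.3% and 10.5% of all genes it tested. The members were long: 20 of the 24 tested coding members lay in the 3 longest deciles of tested genes, where the median gene was lower in RT_ICI.

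**Figure D1:**
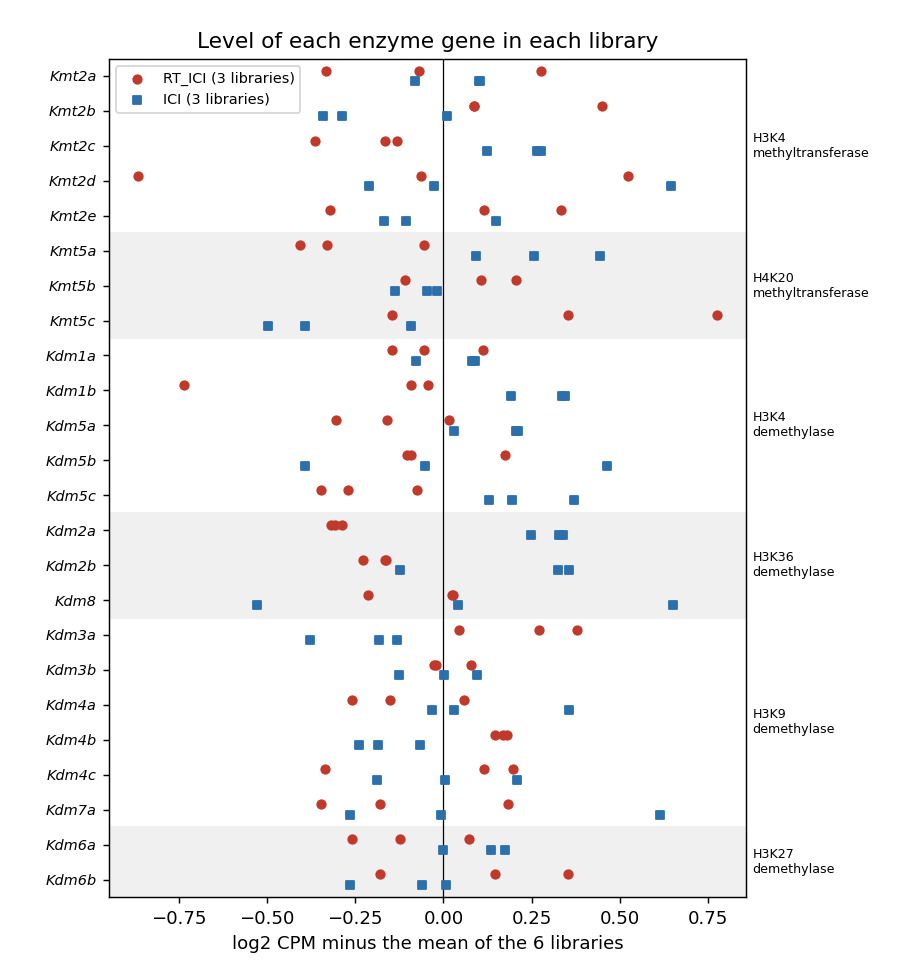
Level of each tested coding member in each of the 6 libraries, as log2 CPM minus the mean over the libraries, grouped by the histone mark. Red circles are RT_ICI libraries and blue squares ICI libraries. For Kdm2a the 3 RT_ICI libraries lie at or under 53.7 CPM, below the 77.9 CPM of the lowest ICI library, while for most other genes the groups meet or overlap.

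Among the writers of H3K4 methylation, the Kmt2 family, the members did not move as 1 block. Kmt2c, which acts mainly at enhancers, had 19.9, 22.8 and 23.4 CPM in RT_ICI and 30.8, 31.0 and 27.9 CPM in ICI (replicates in the order given above). Every RT_ICI library was below every ICI library, by a log2 fold change of -0.44 (SE 0.13, adjusted p = 0.0723, edgeR), which did not pass. Kmt2b, which acts at promoters of developmental genes, had 66.5, 85.6 and 66.6 CPM in RT_ICI and 51.4, 49.5 and 63.1 CPM in ICI. Here every RT_ICI library was above every ICI library, with a log2 fold change of 0.42 (SE 0.16, adjusted p = 0.114, edgeR). Groups without overlap are common in this series, at 19.4% of tested genes lower and 17.8% higher. Both genes are in the longest length decile, at 14967 bases for Kmt2c and 8469 for Kmt2b. Their GC contents were 47.6% and 59.1%.

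Kmt2d, the paralogue of Kmt2c at enhancers and the longest member at 19823 bases, had the largest SE of the tested coding members. It had 70.3, 184 and 122 CPM in RT_ICI and 111, 126 and 200 CPM in ICI, so both groups spanned a wide and shared range. Its log2 fold change was -0.21 with an SE of 0.37 (adjusted p = 0.724, edgeR), and it was 0.07 without RT_ICI replicate 1. A stretch of 455 bases of its transcript is 99.56% identical to Gm47184, so a few reads could be split. Kmt2a, the founding mixed-lineage leukaemia gene, averaged 64.7 ± 13.8 CPM in RT_ICI and 67.6 ± 4.83 CPM in ICI (SD, n = 3 each). Kmt2e, whose SET domain has little known activity, averaged 65.1 ± 14.4 CPM in RT_ICI and 60.6 ± 7.29 CPM in ICI. Neither was called (adjusted p = 0.824 for Kmt2a and 0.725 for Kmt2e, edgeR). The exons of Kmt2e overlap the protein-coding gene Srpk2 on the other strand over 9.31% of their length. Without a stated strand setting, reads there cannot be assigned to 1 of the pair.

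The writers of H4K20 methylation lay on opposite sides. Kmt5a adds the first methyl group and is tied to mitosis and DNA replication, while Kmt5b and Kmt5c add the further ones, Kmt5c at constitutive heterochromatin. Kmt5a had 99.7, 127 and 105 CPM in RT_ICI and 158, 141 and 180 CPM in ICI, with no overlap (log2 fold change -0.53, SE 0.15, adjusted p = 0.0629, edgeR). Kmt5c had 38.3, 72.6 and 54.1 CPM in RT_ICI and 32.3, 30.0 and 39.8 CPM in ICI. RT_ICI replicate 1 was the low library of its group for Kmt5c and lay below ICI replicate 3. The log2 fold change of Kmt5c was 0.69 (SE 0.23, adjusted p = 0.0891, edgeR). Without RT_ICI replicate 1 it was 0.90 and was called (adjusted p = 0.0206, edgeR). In that fit 8.91% of all genes were called higher and 8.8% lower. Without any other single library Kmt5c was not called (adjusted p from 0.145 to 0.254, edgeR). After correction for transcript length and GC content Kmt5c had 0.47 (adjusted p = 0.244, edgeR). With that correction and without RT_ICI replicate 1 it had 0.68 and was not called (adjusted p = 0.0548, edgeR). Kmt5b averaged 33.7 ± 3.70 CPM in RT_ICI and 30.5 ± 1.30 CPM in ICI (adjusted p = 0.497, edgeR).

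Within a library the ratio of the pair does not depend on scaling. Kmt5c had 0.384, 0.571 and 0.514 counts for each count of Kmt5a in RT_ICI, against 0.205, 0.213 and 0.222 in ICI. The ICI libraries were close to each other and all RT_ICI libraries were above them. Both transcripts are of like length, 2774 bases for Kmt5c and 2739 for Kmt5a, but their GC contents were 60.0% and 49.7%. This pair and the others shown were chosen from 10 pairs after their values were seen, and carry no test. The ratio of Kmt2b to Kmt2c was 3.34, 3.75 and 2.85 in RT_ICI and 1.67, 1.60 and 2.26 in ICI. For Kdm4b to Kdm4a it was 1.55, 1.68 and 1.31 in RT_ICI and 1.07, 0.923 and 1.06 in ICI. In both of these pairs, too, the groups did not overlap. Most of the 10 pairs were separated in this way. Kmt2b to Kmt2a was also higher in RT_ICI without overlap. Kdm2a to Kdm2b, Kmt5b to Kmt5c and Kdm1b to Kdm1a were lower without overlap. For Kdm6b to Kdm6a and Kdm5b to Kdm5c the groups overlapped. The share of separated ratios among other gene pairs is not given here, so separation is not read as a trait of these enzymes.

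**Figure D2:**
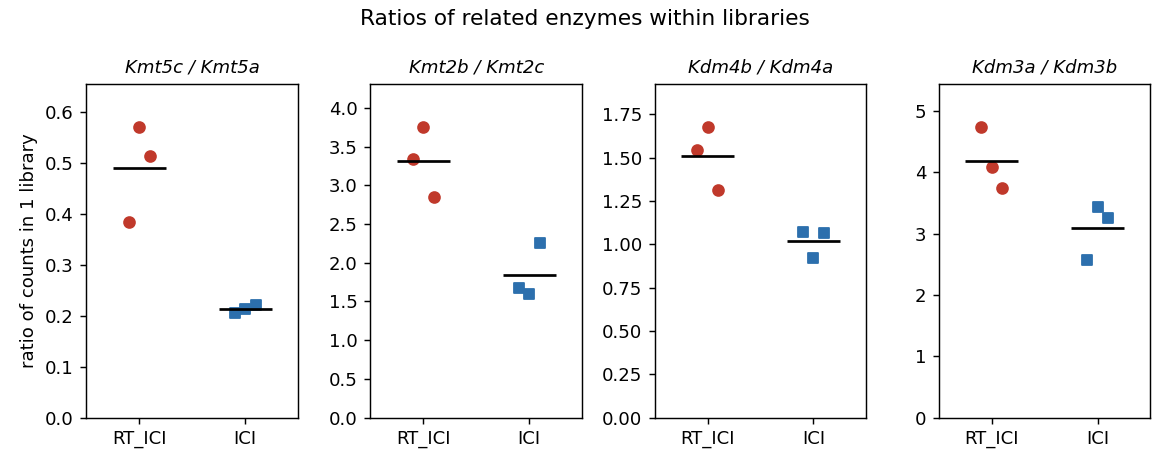
Ratio of the counts of related enzyme genes within each library, with RT_ICI on the left and ICI on the right of each panel. Points are libraries and bars their means, and the vertical axes start at 0. In each of the 4 pairs the lowest RT_ICI library lies above the highest ICI library, as for Kmt5c over Kmt5a with 0.384 against 0.222. The 4 pairs were chosen after their values were seen, and pairs with a lower ratio in RT_ICI are not drawn.

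The promoters of Kmt5a and Kmt5c are shown because the log2 fold changes of the pair had opposite signs, with the CCAAT box, a common element of promoters active in dividing cells, in capitals on either strand. They come from RefSeq on build GRCm38.p6 and run 5′ to 3′ from 250 bases before to 50 after a gene start.
Kmt5a (chr5:124439680-124439979, plus strand): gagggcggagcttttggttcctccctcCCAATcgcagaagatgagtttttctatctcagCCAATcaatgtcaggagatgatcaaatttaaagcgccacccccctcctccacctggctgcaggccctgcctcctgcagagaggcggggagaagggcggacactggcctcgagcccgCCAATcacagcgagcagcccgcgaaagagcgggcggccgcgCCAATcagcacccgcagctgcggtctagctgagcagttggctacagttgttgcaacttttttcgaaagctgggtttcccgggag
Kmt5c (chr7:4739877-4740176, plus strand): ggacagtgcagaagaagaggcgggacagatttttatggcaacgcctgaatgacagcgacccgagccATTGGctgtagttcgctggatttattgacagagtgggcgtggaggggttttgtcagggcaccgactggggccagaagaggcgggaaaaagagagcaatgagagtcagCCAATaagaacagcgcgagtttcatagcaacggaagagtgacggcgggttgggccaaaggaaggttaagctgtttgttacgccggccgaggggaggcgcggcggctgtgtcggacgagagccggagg
The window of Kmt5a held 4 CCAAT boxes and that of Kmt5c 2. At least 1 box on either strand was found in 37.4% of the 32544 promoter windows of the same length. Other motifs were counted as well, and the windows of Kdm3a and Kdm4d also held 2 CCAAT boxes each. A link between the boxes and the fold changes was not tested. Windows over the GENCODE start were matched for 16 of the 27 members.

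The 5 erasers of H3K4 methylation all had a log2 fold change below 0, with a median of -0.30, and none passed the test. Of all tested genes 49.0% were below 0. The share was 69.0% in the longest length decile, which holds Kdm5a, Kdm5b and Kdm5c. It was 64.6% in the decile of Kdm1b and 51.9% in that of Kdm1a. The direction of the 5 erasers did not hold in every setting: Kdm5b had 0.20 without ICI replicate 2 and 0.16 after correction for transcript length and GC content. Under upper-quartile scaling Kdm5b had 0.03 and Kdm1a 0.03, and both were at 0.01 without RT_ICI replicate 2. Kdm5c, an X-linked member of the Kdm5 family, had 36.9, 34.999 and 42.3 CPM in RT_ICI and 57.6, 51.0 and 48.7 CPM in ICI (log2 fold change -0.46, SE 0.13, adjusted p = 0.0624, edgeR). Kdm5a, the retinoblastoma-binding member, had 78.2, 62.6 and 69.3 CPM in RT_ICI and 89.2, 89.6 and 79.0 CPM in ICI (log2 fold change -0.30, SE 0.13, adjusted p = 0.158). In both genes each RT_ICI library was below each ICI library, for Kdm5a by a margin of under 1 CPM. Kdm5b, the member known from slow-cycling melanoma cells, averaged 44.0 ± 4.95 CPM in RT_ICI and 45.6 ± 13.9 CPM in ICI (SD, n = 3 each), and its ICI libraries ran from 33.5 to 60.7 CPM.

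Of the flavin-dependent erasers, Kdm1a, the catalytic subunit of CoREST complexes, averaged 65.0 ± 5.92 CPM in RT_ICI and 67.7 ± 4.32 CPM in ICI (adjusted p = 0.769, edgeR). Kdm1b, its relative known from imprinting in oocytes, had 7.73, 12.1 and 12.5 CPM in RT_ICI and 16.2, 14.7 and 16.3 CPM in ICI. The groups did not overlap, and RT_ICI replicate 1 was the lowest library. Its log2 fold change was -0.55 (SE 0.21, adjusted p = 0.123, edgeR), and -0.36 without that library. The neighbouring gene Dek on the other strand covers 9.19% of the exons of Kdm1b and was itself called lower (log2 fold change -0.81, adjusted p = 0.0467), so part of the reads cannot be assigned.

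Among the H3K36 erasers, Kdm2a (ENSMUSG00000054611, chromosome 19, 4314419 to 4398285) was the called gene. It had 53.1, 52.6 and 53.7 CPM in RT_ICI and 82.3, 77.9 and 82.9 CPM in ICI. The ranges were far apart compared with the spread in either group, with means of 53.1 ± 0.553 CPM in RT_ICI and 81.0 ± 2.74 CPM in ICI (SD, n = 3 each) and a log2 fold change of -0.61 (SE 0.10, adjusted p = 0.0268, edgeR). Over fits that left out 1 library the log2 fold change stayed between -0.65 and -0.59. The call held without RT_ICI replicate 1 (adjusted p = 0.0177) and without ICI replicate 2 (0.0466). It was lost without ICI replicate 1 (0.143), ICI replicate 3 (0.101), RT_ICI replicate 2 (0.0920) or RT_ICI replicate 4 (0.0768), fits in which at most 81 genes of the whole table were called in 1 direction. Without ICI replicate 1 or RT_ICI replicate 2 edgeR called 0 genes of the whole table, so the calls of all other genes given here end there too. At an unadjusted p under 0.05 these fits had 1841 and 2130 genes higher and 1860 and 1977 lower.

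Kdm2b, the paralogue that brings a Polycomb complex to CpG islands, had 18.7, 18.7 and 17.9 CPM in RT_ICI and 26.2, 19.3 and 26.9 CPM in ICI. The RT_ICI libraries were close together, and ICI replicate 2 lay just above them (log2 fold change -0.39, SE 0.17, adjusted p = 0.155, edgeR). Its exons overlap the protein-coding gene Rnf34 on the other strand over 5.77% of their length. A stretch of 615 bases of its transcript is identical to Gm12397. Kdm8, a JmjC protein whose substrate is debated, was the lowest tested coding member by CPM, at 3.40 ± 0.317 in RT_ICI and 3.86 ± 1.55 in ICI (adjusted p = 0.733).

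Among the erasers of H3K9 methylation, Kdm3a and Kdm4b were above ICI in every RT_ICI library, and neither was called. Kdm3a, which acts on mono- and dimethylated H3K9 and is a known target of hypoxia-inducible factors, had 189, 175 and 149 CPM in RT_ICI and 112, 128 and 132 CPM in ICI. The groups did not overlap, and the log2 fold change was 0.46 (SE 0.14, adjusted p = 0.0709, edgeR). Kdm4b, which acts on trimethylated H3K9 and is also known to respond to hypoxia, had 73.3, 73.9 and 72.2 CPM in RT_ICI and 55.3, 62.3 and 57.3 CPM in ICI. Its RT_ICI libraries were nearly equal and all above ICI (log2 fold change 0.33, SE 0.11, adjusted p = 0.0880, edgeR). In their tested paralogues the groups overlapped. Kdm3b averaged 40.9 ± 1.72 CPM in RT_ICI and 40.4 ± 3.09 CPM in ICI, and 24.6% of its exons overlap the noncoding gene Gm26538 on the other strand. Kdm4a averaged 48.8 ± 5.55 CPM in RT_ICI and 57.6 ± 8.58 CPM in ICI, and Kdm4c 17.5 ± 3.28 CPM in RT_ICI and 17.5 ± 2.41 CPM in ICI. Kdm7a, which acts on H3K9 and H3K27, averaged 36.4 ± 7.02 CPM in RT_ICI and 43.7 ± 14.2 CPM in ICI. Adjusted p-values of these 4 lay between 0.297 and 0.984 (edgeR).

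The ratio of Kdm3a to Kdm3b was 4.74, 4.09 and 3.74 in RT_ICI and 2.58, 3.44 and 3.26 in ICI, with no overlap. Of 12 other target genes of hypoxia-inducible factors, 1 rose, 0 fell and 11 did not pass. Over all tested genes 4.46% were called higher and 4.72% lower. The gene that rose was Adm, which encodes adrenomedullin, at 69.5 ± 9.89 CPM in RT_ICI and 36.9 ± 4.35 CPM in ICI (SD, n = 3 each, adjusted p = 0.0266, edgeR). Pdk1, which inhibits pyruvate dehydrogenase, was at 121 ± 2.39 CPM in RT_ICI and 112 ± 9.76 CPM in ICI (adjusted p = 0.549, edgeR). The sum of the 12 genes was 6504, 3207 and 4302 CPM in RT_ICI and 5831, 5442 and 5502 CPM in ICI. The sums of the RT_ICI libraries had no common direction, and abundant genes weigh most in them. Gene by gene, the median log2 fold change of the 12 was 0.19, against 0.01 over all tested genes. After correction for transcript length and GC content it was 0.30, against 0.02. RT_ICI replicate 2 had the lowest sum, while its Kdm3a, at 175 CPM, was above every ICI library. A part of hypoxia in the level of Kdm3a was not tested. The promoter window of Kdm3a is shown because GCGTG is a form of the core that hypoxia-inducible factors bind, in capitals (RefSeq, GRCm38.p6).
Kdm3a (chr6:71632868-71633167, minus strand): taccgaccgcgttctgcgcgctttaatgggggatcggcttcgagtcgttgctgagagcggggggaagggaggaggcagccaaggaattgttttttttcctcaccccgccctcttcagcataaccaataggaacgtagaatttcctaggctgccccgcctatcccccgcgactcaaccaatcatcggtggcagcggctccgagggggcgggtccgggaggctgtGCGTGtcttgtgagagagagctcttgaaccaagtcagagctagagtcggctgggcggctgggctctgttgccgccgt
It held GCGTG 1 time and the other form, ACGTG, 0 times. GCGTG was found on either strand in 32.6% of all promoter windows. At least 1 of either form was found in 44.0% of all windows and in 9 of the 16 member windows. Such a site is therefore not particular to Kdm3a.

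Kdm4d, a testis gene in mouse, had 8, 1 and 0 counts in RT_ICI and 0, 3 and 0 counts in ICI. Kdm4dl had 1 count in RT_ICI replicate 1 and 0 elsewhere. Neither passed the filter on low counts, and at 3 counts for a library at 0 the upper limit was 0.0627 to 0.140 CPM.

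The H3K27 erasers gave no call. Kdm6b, an enzyme induced by inflammatory signals, had 51.1, 74.1 and 64.2 CPM in RT_ICI and 48.3, 58.3 and 55.6 CPM in ICI (log2 fold change 0.22, SE 0.16, adjusted p = 0.360, edgeR), with the groups overlapping. Of 13 immediate early genes, which respond quickly to stimuli, 8 rose, 0 fell and 5 did not pass. Klf2 was at 19.3 ± 2.01 CPM in RT_ICI and 5.30 ± 0.794 CPM in ICI (adjusted p = 0.0189), and Atf3, which did not pass, at 30.2 ± 13.3 CPM in RT_ICI and 15.5 ± 8.79 CPM in ICI. The sum of these genes was highest in RT_ICI replicate 1, at 960 CPM against 495 and 564 CPM in RT_ICI replicates 2 and 4 and 254, 323 and 305 CPM in ICI, while Kdm6b was lowest of its group in that library. Kdm6a, the X-linked paralogue, averaged 19.3 ± 2.26 CPM in RT_ICI and 22.2 ± 1.39 CPM in ICI (adjusted p = 0.379). The antisense row Kdm6bos averaged 0.688 ± 0.204 CPM in RT_ICI and 0.397 ± 0.276 CPM in ICI (adjusted p = 0.359), and 34.0% of its exons overlap Kdm6b.

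Per kilobase of merged exons, Kmt5a was the most abundant member in both groups, at 20.9 ± 2.73 CPM per kb in RT_ICI and 30.0 ± 3.66 CPM per kb in ICI (SD, n = 3 each). Kdm3a stood next in both, at 20.8 ± 2.41 CPM per kb in RT_ICI, level with Kmt5a there, and at 15.1 ± 1.32 CPM per kb in ICI, where Kmt5a lay beyond the spread. Kdm4b, Kmt5c and Kdm1a followed in RT_ICI at 14.9 ± 0.178, 13.7 ± 4.29 and 12.6 ± 1.14 CPM per kb, and the spread of Kmt5c covered both neighbours. In ICI the order after Kdm3a was Kdm1a at 13.1 ± 0.834 and Kdm4b at 11.9 ± 0.734, with Kmt5c at 8.51 ± 1.28. Kmt2c was the lowest tested coding member in both groups, at 1.09 ± 0.0923 CPM per kb in RT_ICI and 1.47 ± 0.0841 CPM per kb in ICI. The genes between these ends lay from 1.42 to 9.08 CPM per kb in RT_ICI and from 1.62 to 9.97 CPM per kb in ICI.

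The fall of long transcripts was then set beside these values. Over all tested genes the median log2 fold change was 0.37 in the shortest decile by longest transcript and -0.26 in the longest decile, which starts at 6384 bases. In that decile 13.7% of genes were called lower and 1.84% higher. The median length of the tested coding members was 6246.5 bases against 2963.5 over all tested genes, and 11 of the 24 lay in the longest decile. These 11 had a median log2 fold change of -0.21, from -0.61 for Kdm2a to 0.42 for Kmt2b. Of the 11, 8 were below 0, beside 69.0% of all tested genes in that decile. Each member was compared with the median of its own decile: 12 of the 24 lay below it and 12 above.

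**Figure D3:**
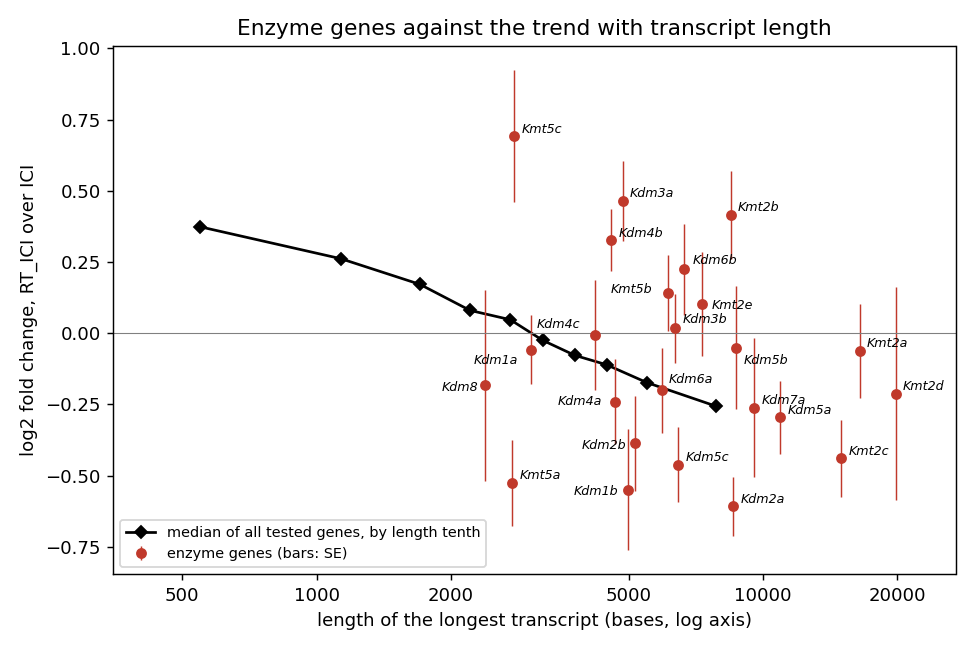
Log2 fold change of RT_ICI over ICI against the length of the longest transcript on a log axis. Black diamonds are medians of all tested genes in each length decile, and red points the 24 tested coding members with their SE. The members scatter on both sides of the black line, 12 below and 12 above the median of their decile.

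The members were also compared by GC content. Of the 5 members in the highest decile by GC content (Kmt2b, Kmt2d, Kmt5c, Kdm4b and Kdm6b), 4 had a log2 fold change above 0, against 4 of the other 19. The median over all genes of that decile was 0.29. Across the 24 coding members the log2 fold change had Pearson correlations of 0.42 with GC content and -0.20 with log2 length. Across all tested genes these were 0.17 and -0.18. Spearman correlations were 0.34 and -0.20 across the members, against 0.21 and -0.26 across all tested genes. All points share the same 6 libraries, so these are descriptions. A curve in length and GC content fitted over all tested genes accounted for 5.996% of the variance of their log2 fold changes. After subtracting it, the median of the 25 tested members was -0.07, the same as the -0.07 over all tested genes.

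Single members lay on either side of the fitted value. Kmt5a lay 0.59 below it, Kdm2a 0.46 below and Kdm5c 0.44 below. Kmt2d lay 0.48 below it with an SE of 0.37, and its log2 fold change as counted was above 0 without RT_ICI replicate 1 (0.07) or ICI replicate 3 (0.08). Kdm3a lay 0.62 above it, with a fitted value of -0.15 for its length and GC content, and Kmt5c 0.38 above. For Kdm5a, at -0.30 as counted, the fitted value was -0.18, and for Kdm6a it was -0.20, equal to its own log2 fold change. When the counts were corrected per library for both properties and tested again with edgeR, 0 members were called, beside 1.18% of all genes called lower and 1.65% higher. At an unadjusted p under 0.05, 3 members were lower and 3 higher, beside 12.7% and 14.8% of all genes. Kdm2a had a corrected log2 fold change of -0.38 (SE 0.10, adjusted p = 0.0746, edgeR), so its call ended. With the same correction and without RT_ICI replicate 1, Kdm3a (adjusted p = 0.0382) and Kmt5b (0.0414) were called higher and 0 members lower, beside 7.85% and 6.49% of all genes. With all 6 libraries Kdm3a came closest, with 0.70 (SE 0.15, adjusted p = 0.0519), followed by Kdm2a and then Kmt5a, with -0.50 (SE 0.15, adjusted p = 0.0938). The correction brought 15 of the 24 coding members nearer to 0 and changed the sign of 4.

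**Figure D4:**
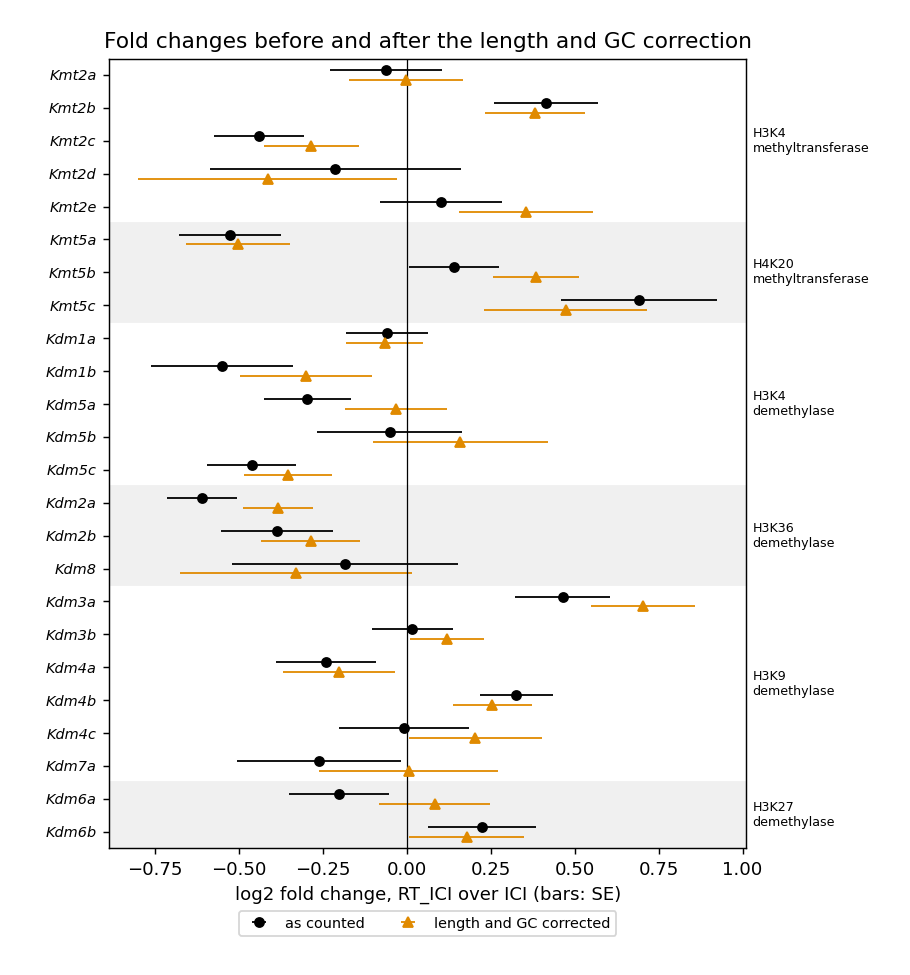
Log2 fold change of RT_ICI over ICI for each tested coding member as counted (black circles) and after a per-library correction for transcript length and GC content (orange triangles), with SE. Kdm2a moves to -0.38 and Kdm5a to -0.03, while Kdm3a moves away from 0 to 0.70.

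Partners of these enzymes and other chromatin genes gave calls in the lower direction. In 10 lists of other chromatin genes 117 were tested, of which 12 fell, 0 rose and 105 did not pass. That is 10.3% lower, against 4.72% of all genes. The median length of these genes was 5406 bases, and in the length decile that holds it (4882 to 6383 bases) 9.09% of all genes were called lower. Their median log2 fold change was -0.14, against 0.01 over all tested genes and -0.17 in that decile. The medians of the lists ran from -0.40 for the Kmt2 partners to 0.12 for the deacetylases. Of 12 tested partners of Kmt2 and related complexes, 3 fell: Men1, which encodes menin and docks Kmt2a on chromatin, was at 34.0 ± 7.07 CPM in RT_ICI and 55.9 ± 2.35 CPM in ICI (SD, n = 3 each). Wdr82, of the Setd1 complexes, and Hcfc1 had log2 fold changes of -0.69 and -0.57. Wdr5, the core subunit shared by all of them, was at 54.4 ± 3.23 CPM in RT_ICI and 71.5 ± 4.51 CPM in ICI, with an adjusted p of 0.0651 (edgeR).

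Among the other lists, Rcor1, the scaffold that holds Kdm1a in CoREST, fell with a log2 fold change of -0.74, the 1 call of 11 tested partners of Kdm1a. Hdac1 of the same complex was at 72.0 ± 1.49 CPM in RT_ICI and 78.6 ± 9.15 CPM in ICI (adjusted p = 0.501). Of 9 tested partners of Polycomb repressive complex 2, which writes H3K27 methylation, Suz12 (-0.54) and Aebp2 (-0.47) fell, while its catalytic subunit Ezh2 was at 58.8 ± 7.99 CPM in RT_ICI and 88.1 ± 25.1 CPM in ICI (adjusted p = 0.105). Setd7 (-0.68) and Nsd3 (-0.54) fell among 22 other methyltransferases, where Setd2, the main H3K36 trimethylase, was at 48.3 ± 1.77 CPM in RT_ICI and 53.4 ± 5.52 CPM in ICI (adjusted p = 0.441). Of 7 tested other demethylases Riox2, a JmjC hydroxylase of ribosomal protein, fell 2.76-fold and Jmjd1c did not pass (log2 fold change 0.21, adjusted p = 0.339).

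Acetyltransferases gave 2 calls of 10, Kat6a (-0.84) and Kat2b (-0.69), with Ep300 at adjusted p = 0.0599. Pbrm1 (-0.56) was the 1 call of 13 SWI/SNF genes, where Smarca4 had a log2 fold change of -0.07 (adjusted p = 0.750). None of 13 deacetylases, 7 DNA methylation genes or 13 CHD and INO80 remodelers was called by edgeR, with examples in Hdac5 (0.40, adjusted p = 0.0708), Uhrf1 (-0.89, adjusted p = 0.0550) and Chd8 (0.37, adjusted p = 0.0869). At an unadjusted p under 0.05 the deacetylases had 5 higher and 1 lower, the DNA methylation genes 0 and 3, and the remodelers 1 and 4, where 15.7% of all genes were higher and 15.8% lower. DESeq2 called 4 and 1, 0 and 1, and 1 and 4 of them, beside 10.5% and 10.3% of all genes. Adjusted p-values of the 12 calls lay between 0.0263 and 0.0467 (edgeR). With length and GC content corrected, 2 of them stayed under 0.05, Men1 (0.0442) and Riox2 (0.0333), and no other of the 117 was called. Of 7 genes known as targets of Kmt2a in blood cells, edgeR called 0 (2 higher at an unadjusted p under 0.05 and 2 by DESeq2), with Hoxa7 nearest at 14.1 ± 1.49 CPM in RT_ICI and 7.35 ± 2.39 CPM in ICI (adjusted p = 0.0544).

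**Figure D5:**
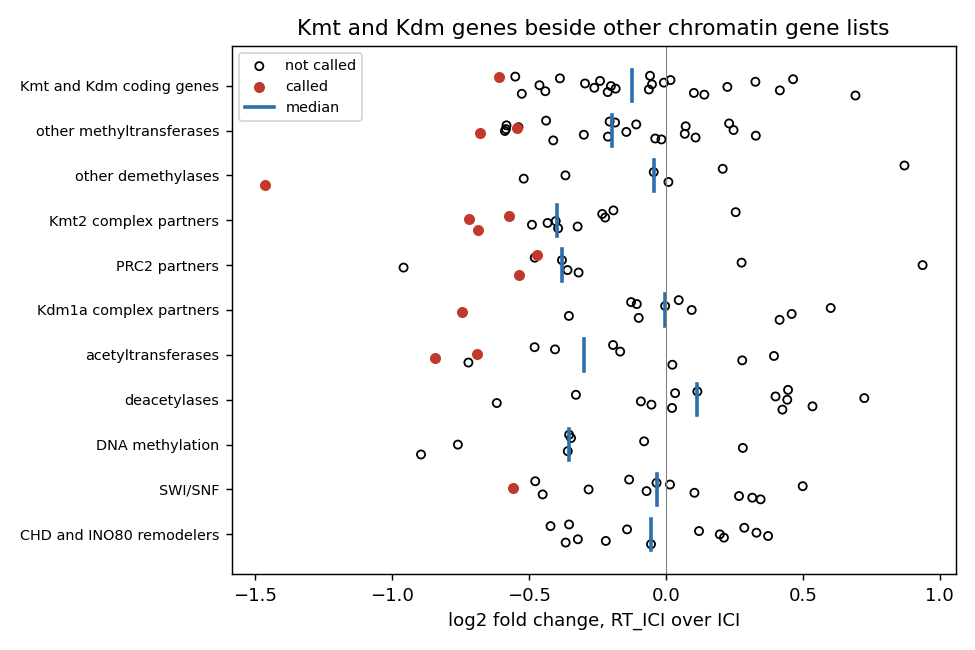
Log2 fold change of RT_ICI over ICI for the 24 tested coding Kmt and Kdm genes and 10 lists of other chromatin genes. Each point is a gene, filled in red where called, and the blue bar is the median of the list. All 13 called genes lie left of 0, and Kdm2a is the 1 call in the top row.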

How the data were processed

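RNA from 6 tumours was sequenced. The authors deposited a table of raw counts, 1 column per tumour. HISAT2 and the builds GRCm38 and mm10 are named in the submitters' processing notes. For the counting tool, annotation, strand setting and versions the entry is: not given in the sources used here. All 6 columns of samples were used. Library totals were 22543721 to 45624013, and every pair of libraries differed beyond sampling noise (chi-square per degree of freedom at least 36.8). Floors of 3 counts cover counting error only.

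Counts were tested with edgeR 4.0.16 in R 4.3.3 (filterByExpr, TMM scaling, robust quasi-likelihood test, 16924 genes, no covariate, Benjamini-Hochberg adjustment over all of them). Adjusted p-values in the text are from this test unless another tool is named. CPM are scaled by TMM, and the SE comes from the log2 fold change and the F statistic. All fold changes are RT_ICI over ICI. The procedure was also run on simulated counts with the same dispersion for every gene and no library standing apart. These data differ in both respects, so that run does not speak for single calls here. Lengths, GC contents (longest transcript), merged exons, positions and exon overlaps came from GENCODE M21, which held 97.8% of the identifiers and a length for 99.6% of tested genes. The correction fitted natural splines (4 degrees of freedom each) of log2 length and GC content to each library's log2 CPM deviations and entered them as offsets. Stretches of at least 200 bases and 95% identity with other genes were sought with blastn 2.17.0 and covered at most 13.3% of a member's transcript.

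Alternatives were other scalings and filters, DESeq2 1.42.0, limma-voom (limma 3.58.1), a replicate block, leaving out libraries, leaving out mitochondrial genes and the corrections. The members and all gene lists were chosen with earlier results of these data known. By rule every member was named, with up to 3 called genes and at least 1 gene not called from each list. Mlana and Plin4 are named as called markers, and 1 marker list is not reported here. No row of the count table carried the name Kdm5d, and Uty was not analysed here.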

Additional observations from a re-analysis of the deposited data

How the results depend on the processing

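Of the 25 tested members, 1 was called lower and 0 higher as reported, with 799 and 754 of all genes. Kdm2a was the 1 member lower, with an adjusted p of 0.0269 to 0.0352, under median-of-ratios or upper-quartile scaling, at least 1 CPM in 3 libraries, limma-voom, no robust estimation and without mitochondrial genes. DESeq2 called 4 members lower and 3 higher, with 1703 (10.3%) and 1746 (10.5%) of all genes, and an adjusted p under 0.1 gave the same 4 and 3, with 1833 (10.8%) and 1802 (10.6%). Those 7 were Kdm2a, Kmt5a, Kdm5c and Kmt2c, lower, and Kdm3a, Kmt5c and Kdm4b, higher. Without a filter on low counts 3 members (Kdm2a, Kdm5c and Kmt5a) and 1507 of all genes (4.35%) were lower. Upper-quartile scaling gave 497 genes lower and 1046 higher, and a median member log2 fold change of 0.022 in place of -0.06. The length and GC correction gave 0 members lower and 199 lower and 279 higher genes, and the length correction alone 0 members, 286 and 386. The replicate number as a block gave 0 members lower (Kdm2a at adjusted p = 0.0963), 245 genes lower and 400 higher. The groups share only numbers 1 and 2, and nothing says that these pair the tumours. Deviations from the group means correlated at 0.35 for number 1 and 0.09 for number 2.

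Leaving out 1 library, with or without the correction (a combination chosen after seeing the data), gave 0 to 1 members lower, 0 to 2 higher, 0 to 1545 genes lower and 0 to 1564 higher. With the correction, dropping RT_ICI replicate 1 left 1139 genes lower and 1378 higher, dropping replicate 2 of that group 0 and 20, and dropping its replicate 4 left 5 and 43. The upper ends came without RT_ICI replicate 1, where Kmt5c was called higher as counted, and Kdm3a (adjusted p = 0.0382) and Kmt5b (0.0414) after the correction, with 7.85% of all genes then called higher. In the fits without the correction, the median member log2 fold change was -0.16 to -0.0054. Its remainder beyond length and GC content, -0.07 as reported, was -0.14 to 0.10 in these fits. The cause of these shifts was not tested. With 3 libraries a group, a single value cannot pass an exact permutation test, whose smallest p is 0.1.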
